A study of Mus musculus with 10 samples.

Results

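Chromatin accessibility was compared in Thy1.2-sorted cells of injured mouse retinas from groups labelled as WT and as conditional knockout (cKO) of *Arid1a*. The description below covers 1776 intragenic distal regions, which carried an ATAC-seq peak in both WT libraries and in neither cKO library. These members were chosen by measured values, namely the presence of a peak in each of the 4 peak lists, and by position. Each overlapped a peak by at least 1 bp in both WT lists, overlapped no peak in the cKO lists, lay more than 1000 bp from both ends of every RefSeq gene of GRCm38, and overlapped the body of a gene. They made up 10.7% of the 16600 regions for which the study deposited group values, and 19.4% of the 9145 regions with peaks in both WT libraries alone. Because each of the 16600 regions overlapped peaks of at least 2 libraries, a region without a cKO peak had to carry both WT peaks.

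All groups were C57BL/6 mice of 8 to 10 weeks carrying floxed *Arid1a*, and all had undergone optic nerve crush (ONC). The WT group (genotype Arid1a fl/fl) had received AAV2-CMV-GFP in the vitreous 2 weeks before ONC, and the cKO group (genotype Arid1a del/del) had received AAV2-CMV-Cre, so that any deletion came after development and depended on which retinal cells the virus entered. The CMV promoter is active in many cell types. Retinas were taken 3 days after ONC, and living cells positive for Thy1.2, a surface protein of retinal ganglion cells (RGCs) and also of T cells, were sorted for 2 WT and 2 cKO ATAC-seq libraries and for 3 WT and 3 cKO RNA-seq libraries. The methods allowed mice of either sex, and the sex behind each library is not given in the sources used here. Each sorted sample held cells of 4 to 5 retinas. The ATAC-seq libraries are described as biological replicates, and the sources used here do not say so of the RNA-seq libraries, so that p-values measure the spread between these libraries, which may be technical.

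ARID1A is a DNA-binding subunit of the BAF form of the SWI/SNF chromatin remodelling complex, which uses ATP to slide or evict nucleosomes. BAF complexes are known to keep enhancers open, and many enhancers lie within introns, far from the start of the gene. Another kind of open site within a gene body is an alternative promoter, from which a shorter transcript starts. ATAC-seq detects both as stretches of DNA that the Tn5 transposase can reach, and it does not tell them apart without an annotation.

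Annotated transcript starts fell inside many of these regions, and sequences at such starts are shown first. Only regions with a listed start could be read as sequence here, so that they do not stand for the others. A RefSeq table on GRCm38.p6 gave windows from 250 bases before to 50 bases after annotated starts. It listed a host gene for 1406 of the 1776 regions, and 464 of these (33.0%) overlapped a window, always one of the host gene itself. The start base lay within the region in 433. The windows below belong to the 6 regions with the highest WT value among these. Further windows belong to the regions with the highest WT value whose window held an AP-1, a CTCF or a RUNX motif. Each is written 5′ to 3′ on the strand of the gene, and capitals mark matches on either strand to the searched motifs AP-1 (TGANTCA), ETS (CCGGAAG), GC box (GGGCGGG), CTCF (CCANNAGGG), RUNX (TGTGGTT), POU (ATGCAAAT), CRX/OTX (TAATCC), RFX (GTTGCNNNG), NRF1 (GCGCATGCG) and the E-boxes CAGCTG and CATCTG.
*Arrdc3*, chr13:80885845-80886144, plus strand: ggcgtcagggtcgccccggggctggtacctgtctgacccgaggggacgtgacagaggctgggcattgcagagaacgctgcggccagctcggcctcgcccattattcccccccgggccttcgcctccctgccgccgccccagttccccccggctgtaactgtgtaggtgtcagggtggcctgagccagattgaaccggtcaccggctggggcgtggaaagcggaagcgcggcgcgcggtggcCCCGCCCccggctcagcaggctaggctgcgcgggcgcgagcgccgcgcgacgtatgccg
*Slc39a10*, chr1:46853569-46853868, minus strand: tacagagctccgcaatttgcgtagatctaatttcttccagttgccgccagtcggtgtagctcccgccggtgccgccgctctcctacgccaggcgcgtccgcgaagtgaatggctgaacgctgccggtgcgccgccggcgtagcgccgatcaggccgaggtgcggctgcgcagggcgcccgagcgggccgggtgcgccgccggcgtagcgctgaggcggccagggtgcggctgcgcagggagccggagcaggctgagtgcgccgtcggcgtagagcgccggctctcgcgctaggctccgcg
*Hdac4*, chr1:92180292-92180591, minus strand: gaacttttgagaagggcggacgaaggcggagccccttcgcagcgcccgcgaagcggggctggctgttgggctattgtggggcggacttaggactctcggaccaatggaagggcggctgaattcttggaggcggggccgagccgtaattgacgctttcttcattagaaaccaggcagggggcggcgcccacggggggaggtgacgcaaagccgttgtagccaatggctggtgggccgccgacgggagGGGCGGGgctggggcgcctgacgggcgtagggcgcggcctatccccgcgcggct
*Cetn3*, chr13:81782997-81783296, plus strand: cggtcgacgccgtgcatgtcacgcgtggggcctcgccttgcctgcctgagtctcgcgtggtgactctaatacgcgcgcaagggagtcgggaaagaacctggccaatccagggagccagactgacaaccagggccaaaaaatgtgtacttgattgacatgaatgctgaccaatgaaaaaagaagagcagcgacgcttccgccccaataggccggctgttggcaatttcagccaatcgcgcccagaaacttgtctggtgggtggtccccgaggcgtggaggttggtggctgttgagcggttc
*Rbpj*, chr5:53590096-53590395, plus strand: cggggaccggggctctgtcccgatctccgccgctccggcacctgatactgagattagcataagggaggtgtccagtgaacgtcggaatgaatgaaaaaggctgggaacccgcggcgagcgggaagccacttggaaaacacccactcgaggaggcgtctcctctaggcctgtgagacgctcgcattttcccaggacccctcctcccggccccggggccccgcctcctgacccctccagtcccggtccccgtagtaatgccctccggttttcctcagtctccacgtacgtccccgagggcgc
*Ing1*, chr8:11558160-11558459, plus strand: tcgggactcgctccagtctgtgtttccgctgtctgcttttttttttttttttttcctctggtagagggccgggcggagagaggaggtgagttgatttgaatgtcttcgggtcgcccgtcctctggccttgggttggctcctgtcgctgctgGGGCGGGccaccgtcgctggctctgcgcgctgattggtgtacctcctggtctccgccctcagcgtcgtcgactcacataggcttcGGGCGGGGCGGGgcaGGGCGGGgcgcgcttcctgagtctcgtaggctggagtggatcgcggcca
*Rfx3*, chr19:28011117-28011416, minus strand: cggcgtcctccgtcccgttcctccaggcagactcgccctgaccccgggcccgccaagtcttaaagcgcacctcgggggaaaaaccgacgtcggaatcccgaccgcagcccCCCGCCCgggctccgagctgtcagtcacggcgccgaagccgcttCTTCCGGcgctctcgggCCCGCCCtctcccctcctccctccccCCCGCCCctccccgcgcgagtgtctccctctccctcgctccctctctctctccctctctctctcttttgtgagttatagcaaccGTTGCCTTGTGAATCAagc
*Stk25*, chr1:93635678-93635977, minus strand: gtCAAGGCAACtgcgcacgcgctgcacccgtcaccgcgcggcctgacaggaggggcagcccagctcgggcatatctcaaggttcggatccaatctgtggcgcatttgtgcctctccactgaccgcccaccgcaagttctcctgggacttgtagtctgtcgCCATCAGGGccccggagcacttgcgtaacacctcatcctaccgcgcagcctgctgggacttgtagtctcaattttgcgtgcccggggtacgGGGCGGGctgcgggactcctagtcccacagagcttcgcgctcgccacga
*Fancc*, chr13:63431696-63431995, minus strand: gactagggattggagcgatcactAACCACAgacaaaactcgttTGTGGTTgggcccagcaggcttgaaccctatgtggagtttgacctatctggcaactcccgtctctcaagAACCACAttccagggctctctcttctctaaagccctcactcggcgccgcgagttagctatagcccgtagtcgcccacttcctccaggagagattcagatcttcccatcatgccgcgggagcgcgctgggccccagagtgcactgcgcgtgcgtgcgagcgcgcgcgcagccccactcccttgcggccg

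All 9 windows were rich in G and C, from 58.3% in *Cetn3* to 72.7% in *Arrdc3*, with between 22 and 47 CpG dinucleotides in 300 bases. *Ing1* held 4 GC boxes, of which a pair overlapped, and *Rfx3* held 3. In *Rfx3*, which also held an ETS match, an RFX match ended directly before the only AP-1 match of the 9 windows. The start base of *Rfx3* lay just outside its region, which the window overlapped in part. Its AP-1 and RFX matches also lay in the part of the window outside the region. *Stk25* held a CTCF, an RFX and a GC box match. *Fancc* held 3 RUNX matches, all of them in the part of the window outside its region. *Arrdc3* and *Hdac4* held 1 GC box each, and *Cetn3*, *Rbpj* and *Slc39a10* held none of the searched motifs. A match is a string of letters, and no binding was measured.

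The libraries differed widely in where their peaks lay, and this bears on all that follows. WT replicates 1 and 2 had 76522 and 42265 peaks, and cKO replicates 1 and 2 had 55902 and 68317. Of the WT replicate 2 peaks, 24.4% overlapped one of WT replicate 1, and in the other direction the share was 13.6%. Of the cKO replicate 1 peaks, 3.39% overlapped one of cKO replicate 2, and in the other direction the share was 2.77%. The overlap of cKO replicate 1 with WT replicate 1 was 3.48%, so that this cKO library shared no larger part of its peaks with the other cKO library than with that WT library. Of RefSeq start windows with a CpG observed-to-expected ratio over 0.6, 68.9% and 63.4% overlapped a peak in the WT libraries, compared to 2.74% and 2.12% in the cKO libraries. In the remaining windows these shares were 9.80% and 7.16% in WT and 2.01% and 2.28% in cKO. The nearly complete lack of peaks at CpG-rich starts in both cKO libraries moved with the group, and its part in the results on these regions was not tested.

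**Figure D1:**
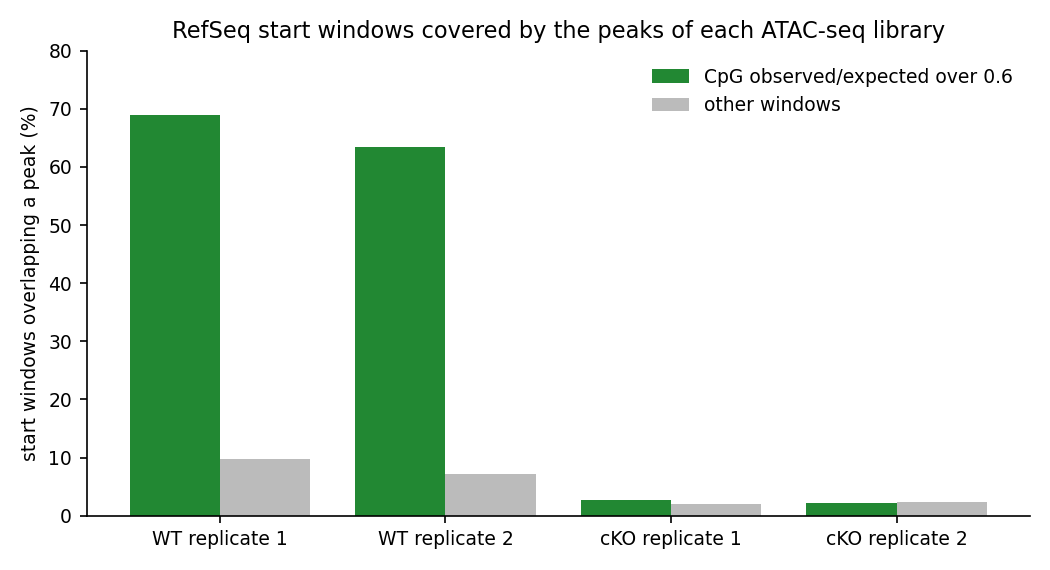
Share of RefSeq start windows (y axis, percent) that overlapped a peak in each of the 4 ATAC-seq libraries (x axis), split by the CpG observed-to-expected ratio of the window. CpG-rich windows stood at 68.9% and 63.4% in the WT libraries and at 2.74% and 2.12% in the cKO libraries.

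In the RNA-seq libraries, the label of retinal ganglion cells was not borne out by all defining markers. *Thy1* ranged from 52.0 to 88.5 TPM (transcripts per 1e6 transcripts) in the libraries labelled WT and from 94.5 to 129 in those labelled cKO. Of 25 markers of these cells, 20 passed the filter for testing, which asks only for 1 TPM in at least 3 libraries. After *Thy1*, the highest were *Isl1* (51.9 to 104 TPM over the 6 libraries), *Jam2* (40.8 to 117), *Gap43* (24.3 to 67.9) and *Ebf1* (15.3 to 51.8). Other markers that passed were low. *Rbpms* ranged from 1.82 to 6.43 TPM, *Sncg* from 0.827 to 4.55 and *Pou4f1* from 0.0838 to 3.60. *Nefm* ranged from 2.31 to 8.27 TPM, *Nefh* from 1.56 to 5.78 and *Tubb3* from 3.45 to 12.0. In every library, 3 markers were under 1 TPM. *Pou4f2* reached at most 0.143 TPM and *Opn4* at most 0.532, and *Slc17a6*, the vesicular glutamate transporter of RGCs, at most 1.57. The 25 RGC markers summed to 319 to 447 TPM in WT and 466 to 487 in cKO, while 15 rod photoreceptor markers summed to 6659 to 9676 and 15406 to 26558. The 30 T cell markers summed to 1454 to 4143 TPM in WT and 483 to 988 in cKO. The cells are therefore called Thy1.2-sorted cells here. By immunostaining, the paper found nearly all of the sorted cells positive for βIII tubulin. That stain was not examined here. In bulk libraries such as these, fewer cells of a type and less RNA per cell cannot be told apart.

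Within the 1776 intragenic distal regions, the WT value exceeded the cKO value in 1775. These values were the authors' group means, on a log2 scale of normalised reads per region, with no value for single libraries. The median was 4.20 in WT (quartiles 3.62 and 4.83) and 2.32 in cKO (quartiles 1.69 and 2.81), which correspond to 18.4 and 4.99 reads. The median difference, cKO minus WT, was -2 (quartiles -2.73 and -1.41), so that the cKO value stood at 25.0% of the WT value. Summed over the regions, the group values came to 45464 reads in WT and 9459 in cKO, a ratio of 4.81. A difference of -2 or less was seen in 891 regions (50.2%), compared to 40.8% of all 16600 regions. Since peaks in the same libraries chose the regions, these differences describe them and carry no test. In 27 regions the cKO value was -0.75, the lowest in the whole table.

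Other classes of regions selected by the same peak pattern differed in level. Regions with WT peaks alone at gene ends, within 1000 bp of either end, were higher in WT and had a larger difference, with a WT median of 5.07 and a median difference of -2.68 over 6527 regions. Intergenic regions with WT peaks alone were close to the intragenic ones, with a WT median of 3.81 and a median difference of -1.94 over 840 regions. The 223 intragenic distal regions that had both WT peaks and also a cKO peak had a similar WT median of 4.46 but a cKO median of 3.30, for a difference of -1.20. At the other end of the table, the 1624 regions with peaks in both cKO libraries alone had a median difference of 1.68. Only 113 regions carried a peak in all 4 libraries, and their median difference was -0.44.

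**Figure D2:**
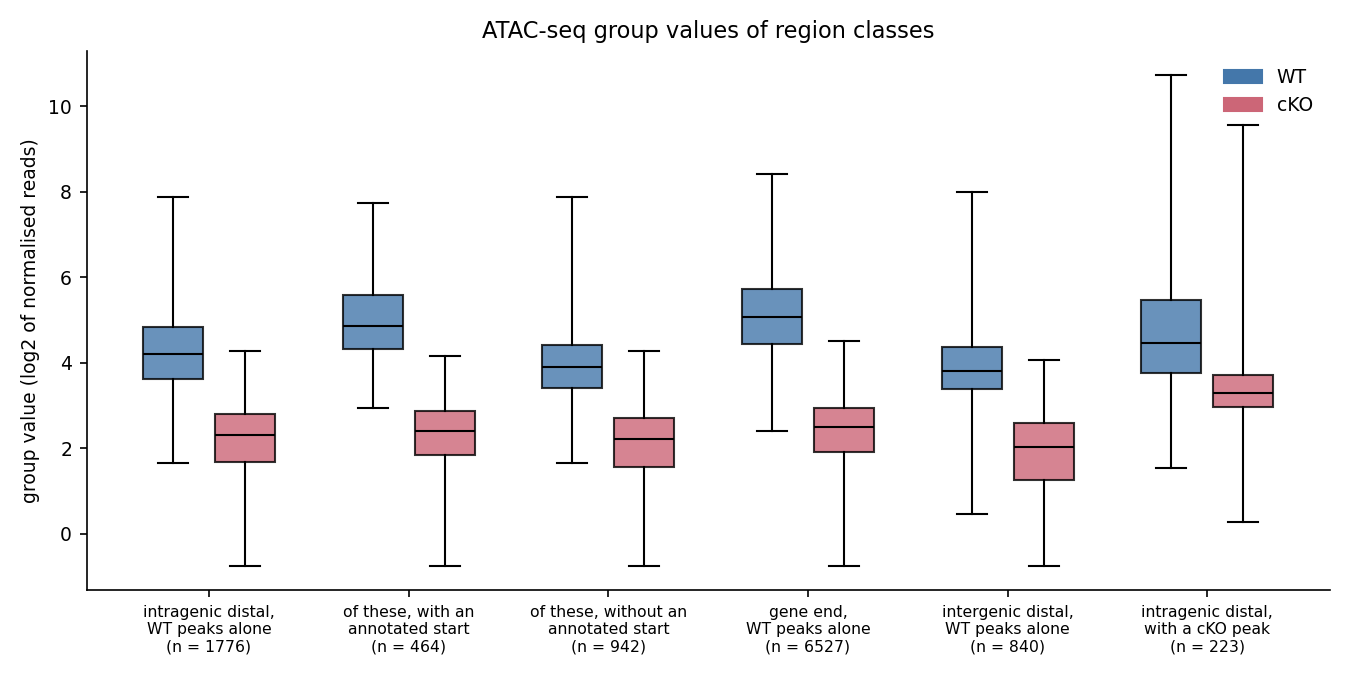
Group values of ATAC-seq regions (y axis, log2 of normalised reads) in WT and cKO, for the intragenic distal regions with WT peaks alone, for those of them with and without an annotated start, and for 3 other classes (x axis). Boxes span the quartiles with the median as a line, and whiskers reach the lowest and highest region. The medians of the 1776 regions were 4.20 in WT and 2.32 in cKO.

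At the limit of 1000 bp, regions just inside and just outside it had like values. Just inside lay regions in *Actb* (1002 bp from the end of the gene, 6.56 in WT and 3.43 in cKO), *Trim2* (1004 bp, 3.47 and 0.22) and *Msantd2* (1006 bp, 5.03 and 2.17). Just outside lay regions in *D16Ertd472e* (1000 bp, 3.26 and 1.60), *Cdc42bpb* (998 bp, 5.12 in WT and a difference of -3.86) and *Dnajc1* (997 bp, 5.49 and 2.71).

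Most regions lay well inside long genes. The median distance to the nearest gene end was 7781 bp (quartiles 2857 and 22680), 490 lay over 20000 bp away and 65 over 100000 bp. Protein-coding genes hosted 1627 of the regions and lncRNA genes hosted 136. In 1393 regions the strand of the host gene was known, and the median position was 36.8% of the way from the 5′ end, with 435 regions (31.2%) in the first 20% of the gene. The value in WT was higher near gene ends, with a median of 4.62 between 1000 and 2000 bp and 3.62 beyond 100000 bp. The median difference went from -2.41 to -1.76 over the same range. No cKO peak lay close to most of them, since the nearest peak was a median of 11243 bp away in cKO replicate 1 and 10367.5 bp in cKO replicate 2. In each of these lists 109 regions (6.14%) had a peak within 1000 bp that did not overlap them.

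Annotated starts set apart the strongest regions. The 464 regions with a start had a WT median of 4.86 and a cKO median of 2.41, and the 942 without one, in genes of the table, had 3.91 and 2.23. The median differences were -2.63 and -1.78. At a like WT value the differences were closer. Between 4 and 5 in WT, the range of this width with the largest number of starts, the median difference was -2.29 in 188 regions with a start and -1.90 in 329 without. Between 5 and 6 in WT, the median difference was -2.77 in 146 regions with a start and -2.67 in 81 without. Between 3 and 4, it was -1.73 in 60 and -1.48 in 432. WT peaks were also wider at starts. In WT replicate 1 the median peak was 627.5 bp in regions with a start and 394 bp in those without, compared to 643 bp at gene ends with WT peaks alone.

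The share of regions with a start was highest close to gene ends, whether 5′ or 3′, and in the first part of the host gene. It was 51.8% between 1000 and 2000 bp from a gene end and 13.0% beyond 100000 bp. It was 52.9% in the first 20% of the host gene and 7.92% in the last. Gene-end regions with WT peaks alone held a start in 91.0% of 5440, and the intragenic distal regions that kept a cKO peak held one in 30.7% of 176, close to the 33.0% here. Most intragenic distal regions in genes of the table, 942 of 1406, thus held no start that RefSeq lists.

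**Figure D3:**
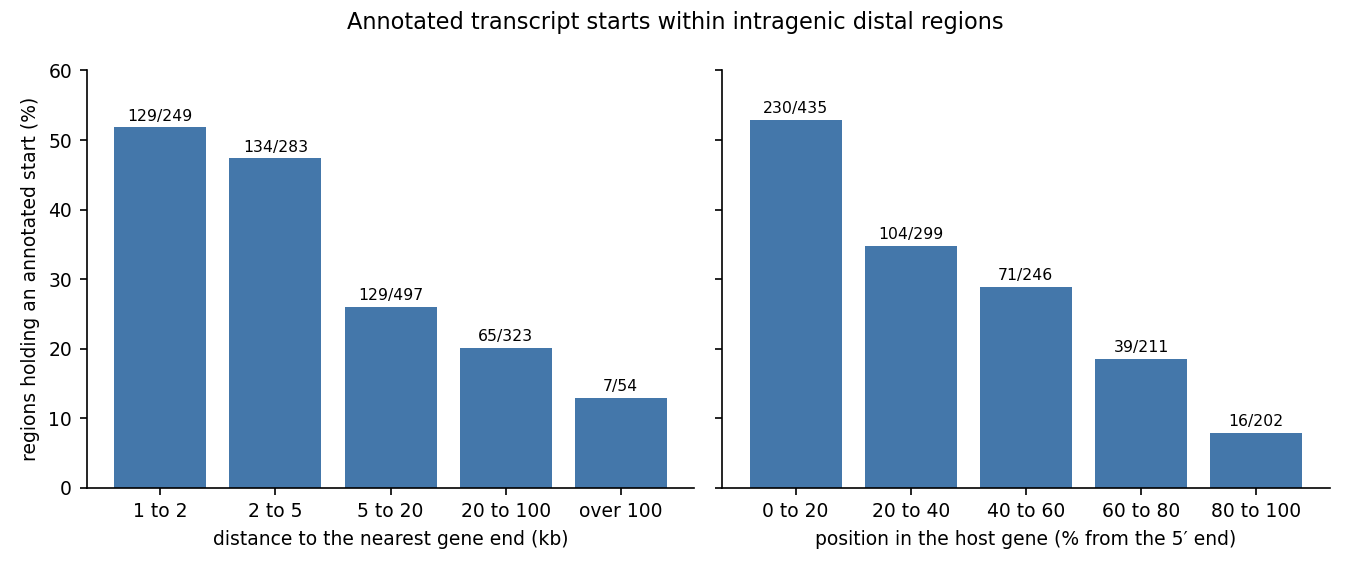
Share of intragenic distal regions holding an annotated start (y axis, percent, starting at 0), by distance to the nearest gene end (left) and by position in the host gene (right). The fraction above each bar gives the regions with a start over those in genes of the start table, and the share went from 52.9% in the first 20% of the gene to 7.92% in the last.

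The start windows that overlapped these regions were mostly CpG-rich, as CpG island promoters are. Over 558 windows, the median GC content was 62.8% and the median CpG observed-to-expected ratio 0.79, and 79.9% had a ratio over 0.6. Windows in gene-end regions with WT peaks alone had nearly the same composition, with 63.3% GC and 85.9% over that ratio. Other internal starts of the same host genes that lay in none of the 16600 regions, 467 in number, had 51.0% GC, and 22.3% had a ratio over 0.6. In all 32851 windows of the table the share was 35.8%.

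The searched motifs differed in how often these windows held them. The GC box, which SP and KLF factors bind, was present in 49.1% of the 558 windows and in 25.6% of all windows. The ETS motif was present in 16.1% and 8.86%, and the NRF1 motif in 3.76% and 1.75%. These motifs, like the GC box, contain CpG. The RFX motif stood at 18.8% and 13.5%. AP-1 stood at 3.41% and 7.81%, RUNX at 2.69% and 5.27%, and the CATCTG E-box at 9.68% and 17.2%. The CAGCTG E-box stood at 14.2% and 16.3%, CTCF at 5.38% and 5.98%, CRX/OTX at 6.63% and 7.06%, and POU at 1.97% and 1.74%. Any E-box (CANNTG) was present in 61.6% and 72.3%. Windows in gene-end regions with WT peaks alone had like shares and were not set apart from these. There the GC box stood at 54.9%, ETS at 20.4%, NRF1 at 4.95% and RFX at 15.7%. AP-1 stood at 3.41% there, RUNX at 3.04% and the CATCTG E-box at 9.21%. No genome was used here, so the regions without an annotated start were not searched.

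Of the 12 regions with the highest WT values, 7 held a listed start. *Arrdc3*, which encodes an arrestin-domain adaptor, had a region of 1170 bp at chr13:80885204-80886373 with 7.73 in WT and 3.06 in cKO, or 212 and 8.34 reads. *Slc39a10*, a zinc importer, followed with 7.56 and 2.77 at chr1:46852843-46854325, which lay 45299 bp from the nearest gene end. *Hdac4*, a class IIa histone deacetylase, had 7.46 and 2.61. *Cetn3*, which encodes a centrin of the centrosome, had 7.39 and 1.98. In *Rbpj*, the transcription factor that receives Notch signals, a region of 1613 bp had 7.33 and 3.41 and held 2 listed starts. *Ing1*, a reader of histone H3 lysine methylation, had 7.25 and 1.82, the third largest difference of all 1776 at -5.43. *Cnnm2*, linked to magnesium transport, had 7.23 and 3.66.

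Of the other 5 regions of this rank, those in *Myo3a* and *Stxbp4* held no listed start, and the hosts of the remaining 3 were not in the start table. The highest WT value of all, 7.88 against 3.22 in cKO, belonged to a region of only 293 bp in *Myo3a*, a myosin of photoreceptors, at chr2:22587355-22587647 and 30605 bp from the end of the gene. *Myo3a* RNA was between 0 and 0.106 TPM in the 6 libraries. A region of 395 bp in *Stxbp4* reached 7.24 and 3.21. Both were narrower than 500 bp, the lower quartile of all 1776. The lncRNA gene *Gm6410* had 7.66 and 3.52, *Ywhaz*, which encodes a 14-3-3 adaptor, had 7.52 and 3.59 over 2120 bp, and *Pcmtd1* had 7.46 and 2.90. *Gm6410* RNA was at most 1.08 TPM, and *Ywhaz* RNA was between 318 and 599 TPM, so that high WT values were seen in genes with little and with much RNA.

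Among the largest differences, chromosome X stood out. The pseudogene *LOC115489104* (5.80 in WT and -0.18 in cKO) and *Syp*, which encodes the synaptic vesicle protein synaptophysin (4.75 and -0.75), had the 2 largest, at -5.98 and -5.50, and *Cul4b*, a cullin of ubiquitin ligases, was among the first 10 at -5.17. All 3 lie on chromosome X. The 45 regions on chromosome X had a median WT value of 4.43 and a median cKO value of 1.22, compared to 4.19 and 2.33 for the 1731 autosomal ones. Their median difference was -3.47, compared to -1.97. The same was seen at gene ends with WT peaks alone (-3.49 over 187 regions on chromosome X and -2.67 over 6339 autosomal ones). Of all peaks, 1.51% (Wilson 95% interval 1.43 to 1.60) and 0.991% (0.901 to 1.09) lay on chromosome X in WT replicates 1 and 2, and 0.268% (0.229 to 0.315) and 0.384% (0.340 to 0.433) in cKO replicates 1 and 2. These intervals cover counting error only. The cause of the lower share on chromosome X was not tested, and without this chromosome the median difference was -1.97.

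Of the 7 autosomal regions among the 10 largest differences, 6 held a listed start. After *Ing1* and *Cetn3* (-5.41) came *Ctnnd1*, encoding p120 catenin of cell junctions (4.59 and -0.75), and *Vopp1* (4.58 and -0.75), both at the lowest cKO value of the table. *Anapc15*, a subunit of the anaphase-promoting complex, had 6.33 and 1.08, and *Ccdc12* had 5.47 and 0.22. At the other extreme, the single region with a higher cKO value lay in *Zcchc14* (2.81 and 3.01, a difference of 0.20), followed by *Clpb* (3.31 and 3.29) and *Gm19696* (3.09 and 3.04). The WT values of the 10 smallest differences were between 2.40 and 4.02, and none of the 7 with a host in the start table held a start.

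The regions fell in 1638 genes, of which 193 hosted at least 2 and 44 at least 3. *Maml3*, which encodes a coactivator of Notch signalling, hosted 5, with WT values between 4.17 and 6.24 and cKO values between 1.57 and 3.89. The strongest lay 2342 bp from its 5′ end and the next at 58384 bp. *Nav2*, a microtubule regulator of neurite growth, hosted 5 from 28.7% to 70.2% of its length, with differences between -1.84 and -0.44. *Pde1c*, a calcium-dependent phosphodiesterase, also hosted 5, with differences between -3.36 and -1.12. None of these 15 regions held a listed start.

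Genes with 4 regions included *Nfia*, a transcription factor of glia and late retinal progenitors. Its strongest region had 5.85 in WT and 2.69 in cKO and lay 3930 bp from the nearest gene end. *Nrxn3*, a presynaptic adhesion receptor, had 4 regions with WT values of only 3.05 to 4.33, and that at 67.6% of its length held a listed start. *Astn2*, which acts in neuronal migration, had 4 with WT values of 2.79 to 4.44, although its RNA was between 0.0494 and 0.331 TPM. *Mogat1*, an acyltransferase of triglyceride synthesis, *Bcor*, a corepressor on chromosome X, and *Msi2*, an RNA-binding protein of progenitors, had 4 each. The immunoglobulin heavy chain locus *Igh* and *Ptprn2* also had 4 each.

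RNA-seq was used to ask whether host genes differed in RNA between the groups. The rule that chose the regions used no RNA value. It was set with earlier results of these data known, and the sorted cells came from groups with the same labels, so that the RNA is not fully independent of it. The gene targeted for deletion was read first. *Arid1a* RNA was 18.8, 11.7 and 14.1 TPM in the 3 libraries labelled WT and 18.8, 27.9 and 25.0 TPM in those labelled cKO. The groups did not overlap, by 18.79 against 18.83 TPM, and the level was not lower in the libraries labelled cKO (log2 fold change 0.66 ± 0.28 SE, limma adjusted p = 0.27). Transcripts were summed to genes before deposit, so that a loss of the floxed part alone cannot be read from these values. By immunostaining, the paper found Cre in most RGCs after injection of the Cre virus, and less ARID1A protein in them. Those stains were of retinas and not of the sequenced cells. Deletion was thus not measured in these libraries, and all directions below rest on the labels. *Arid1a* itself hosted a region, at chr4:133754140-133754887, 1882 bp from the nearest gene end and at a listed start, with 5.12 in WT and 2.50 in cKO.

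The TPM table held 1527 of the 1638 host genes, and 1344 of these passed the filter of 1 TPM in at least 3 libraries. No host gene passed an adjusted p of 0.05 in limma, and the smallest was 0.12. Among all 17555 genes tested, 1 passed as higher in cKO (0.0057%) and none as lower (0%), with 2095 and 1133 at an unadjusted p under 0.05. Of the 1344 host genes, 235 (17.5%) were higher and 56 (4.17%) lower at an unadjusted p under 0.05, against 11.9% and 6.45% of all genes. The 3 libraries of each group did not overlap in 327 host genes higher in cKO (24.3%) and 73 lower (5.43%), against 18.7% and 7.18% of all genes. The median log2 fold change was 0.22 in host genes and 0.16 in all genes, so that both lay above 0. When each library was instead divided by the median of its gene ratios, all genes had a median of 0.01 and host genes one of 0.06. The split was then 161 higher (12.0%) and 94 lower (6.99%), against 7.57% and 9.54% of all genes. Without cKO replicate 1 there were 127 higher (9.53%, against 6.72% of all genes) and without cKO replicate 2 there were 118 higher (8.87%, against 5.76%) and 32 lower (2.40%, against 4.12%). The host median was 0.09 without WT replicate 1, where that of all genes was 0.07, and 0.35 without WT replicate 2, where it was 0.25.

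Gene length moved with both measures. Host genes had a median length of 82114 bp, compared to 20918 bp for all tested genes with a position. Of tested genes over 200000 bp, 36.8% hosted a region, and of those up to 20000 bp 2.64% did. In genes up to 20000 bp the median log2 fold change was 0.08 in hosts and 0.07 in the others. From 50000 to 100000 bp it was 0.18 and 0.19, and from 100000 to 200000 bp 0.22 and 0.23. Over 200000 bp it was 0.45 in 315 hosts and 0.39 in the others, with 32.1% and 24.2% higher at an unadjusted p under 0.05.

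**Figure D4:**
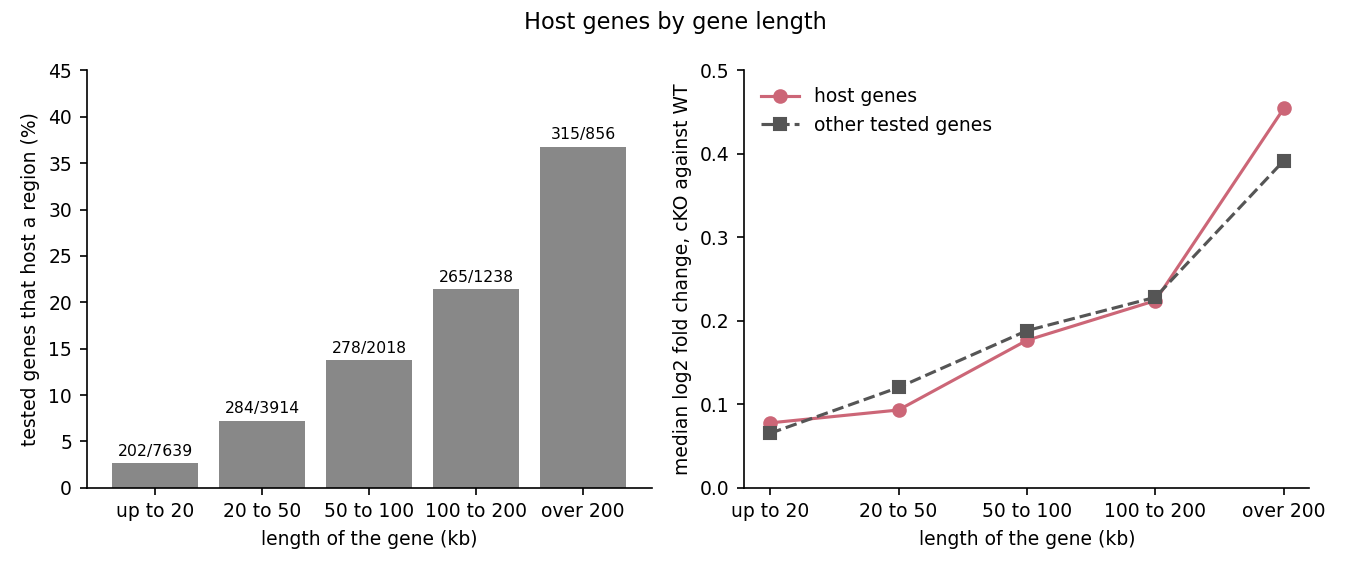
Share of tested genes that hosted an intragenic distal region (left, percent, starting at 0) and median log2 fold change of RNA in cKO against WT (right) by length of the gene in kb (x axes). Host genes and other genes had like medians in each length class, 0.45 and 0.39 in the longest.

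The size of the ATAC-seq difference was not matched by a like order in the RNA of the host. When the host genes were ordered by the log2 ratio of their summed cKO to WT reads and divided into 4 groups of 336, the group with the lowest ratio (median -3.30) had a median log2 fold change of 0.26, and the group with the highest (median -1.11) had 0.28. Hosts with a region at a listed start had a median of 0.16 (458 genes), and hosts in the start table with regions elsewhere had 0.23 (596 genes). The 42 tested hosts of 3 or more regions had a median of 0.44, with 85.7% above 0, compared to 64.4% of all tested hosts and 61.1% of all genes. Hosts over 200000 bp had nearly the same median of 0.45. Hosts of intragenic distal regions that kept a cKO peak had 0.22 (185 genes), the same as here. A WT peak region at an end of the gene was also present in 30.8% of tested hosts, and in 44.8% of all tested genes with a position.

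The hosts of the strongest regions mostly had overlapping RNA levels. *Arrdc3* RNA was 54.6, 123 and 102 TPM in WT and 84.4, 83.3 and 107 TPM in cKO. *Cetn3* RNA was 186, 346 and 215 TPM in WT and 261, 259 and 212 TPM in cKO. *Ing1* RNA was 11.3, 17.4 and 10.9 TPM in WT and 14.5, 10.7 and 8.03 TPM in cKO. In all 3 genes the groups overlapped, with log2 fold changes of 0.04 ± 0.33, 0.02 ± 0.28 and -0.24 ± 0.32 SE and limma adjusted p of 0.96, 0.98 and 0.72. Of the 12 regions with the highest WT value, 10 lay in tested genes. Only *Pcmtd1* did not overlap between groups (69.3 ± 4.66 TPM in WT and 96.3 ± 11.7 TPM in cKO, SD, n = 3). Over all tested genes, 18.7% did not overlap as higher and 7.18% as lower in cKO, so that so few hosts say little. Transcripts were summed to genes before deposit, so that RNA from an internal start is not separated here.

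The 5 host genes with lower RNA in cKO and the smallest p were *Runx3*, *Il7r*, *H2-DMa*, *Capg* and *Myc*. *Runx3*, a transcription factor of cytotoxic T cells, was at 23.8, 18.5 and 23.7 TPM in WT and 5.99, 2.54 and 5.04 TPM in cKO. *Il7r*, the receptor for interleukin 7, was at 61.5, 25.5 and 38.0 TPM in WT and 11.5, 5.59 and 11.3 TPM in cKO. *H2-DMa*, which helps to load peptides on MHC class II, was at 142, 131 and 140 TPM in WT and 55.1, 81.6 and 54.5 TPM in cKO. None of the 3 genes overlapped between groups, and 7.18% of all tested genes were lower without overlap. *Capg*, an actin-capping protein of macrophages, averaged 82.9 ± 31.4 TPM in WT and 20.7 ± 7.04 in cKO, and *Myc* averaged 27.1 ± 9.61 and 7.30 ± 2.18 (SD, n = 3). The log2 fold changes of these 5 genes lay between -2.11 (*Runx3*) and -1.12 (*H2-DMa*), each with a limma adjusted p of 0.12. With 3 libraries against 3, the two-sided exact permutation test cannot go below 0.10, which all 5 reached. They were picked by their limma p in the same libraries, so that reaching this floor adds no further support.

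Their regions ranged widely in WT value, beside quartiles of 3.62 and 4.83 over all 1776. The *Runx3* region had 3.35 in WT and 1.53 in cKO and that of *Il7r* 3.53 and 2.63, both below the lower quartile in WT. That of *H2-DMa* had 4.68 and 2.34, and that of *Capg* 4.27 and 2.36. The region of 1703 bp at *Myc* had 5.31 and 4.18, a high cKO value for a region without a cKO peak. Both *Runx3* and *Il7r* are on the T cell list. Of its 30 markers, 25 were lower at an unadjusted p under 0.05, against 6.45% of all tested genes. So were 6 of 21 myeloid and 6 of 11 B cell markers. The summed T cell markers did not overlap between the groups. The part of immune cells in the RNA of these hosts was not tested. *Fosb*, an AP-1 subunit induced by activity and injury, hosted a pair of regions (6.13 and 1.69, 5.01 and 1.21) and was at 112, 72.0 and 155 TPM in WT and 47.9, 30.4 and 75.6 TPM in cKO, with overlapping groups (limma adjusted p = 0.21).

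The 5 host genes with higher RNA in cKO and the smallest p were *Cacnb2*, *Syt1*, *Dpysl3*, *Magi2* and *Sgip1*. *Cacnb2*, a subunit of voltage-gated calcium channels, was at 22.3, 18.4 and 24.2 TPM in WT and 73.1, 77.8 and 65.8 TPM in cKO, a log2 fold change of 1.70 ± 0.21 SE. *Syt1*, the calcium sensor of synaptic vesicle release, was at 346, 357 and 334 TPM in WT and 923, 839 and 688 TPM in cKO. *Dpysl3*, which regulates the growth cone, was at 16.3, 16.7 and 16.8 TPM in WT and 38.0, 51.0 and 59.7 TPM in cKO. In all 3 the lowest cKO library lay well above the highest WT library, and 18.7% of all tested genes were higher without overlap. The 5 genes were picked by p in the same libraries, so that this separation adds no further support. *Magi2*, a synaptic scaffold, averaged 38.5 ± 2.83 TPM in WT and 83.2 ± 7.92 in cKO, and *Sgip1*, which acts in endocytosis, averaged 70.4 ± 8.95 and 155 ± 16.4 (SD, n = 3). Each of these 5 had a limma adjusted p of 0.12. In the same libraries all 15 rod photoreceptor markers were higher at an unadjusted p under 0.05, and their part in these values was not tested. *Cacnb2* hosted a pair of regions with 4.63 and 3.75 in WT and 2.70 and 1.55 in cKO. Its RNA was thus higher in the group that lacked peaks there, and a link between them was not tested.

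**Figure D5:**
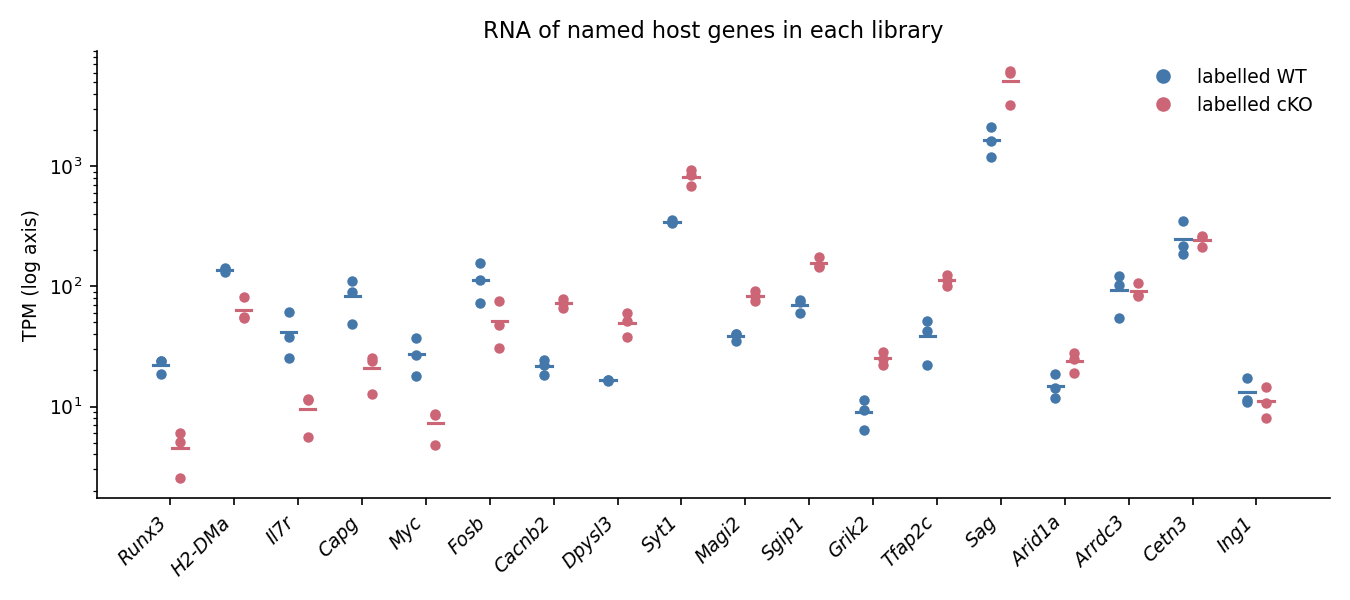
RNA of 18 named host genes (x axis) in TPM (y axis, log axis) in the 3 libraries labelled WT and the 3 labelled cKO. Points are libraries and lines are group means. *Runx3* averaged 22.0 in WT and 4.52 in cKO, *Cacnb2* averaged 21.6 and 72.2, and *Cetn3* overlapped between the groups.

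Lists of axon and synapse genes held many hosts. Of 42 tested genes of axon guidance and cell adhesion, 18 were hosts, and of 37 genes of synapse organisers and release 16 were, compared to 7.66% of all tested genes. Many of these genes are long. Of those over 200000 bp, 15 of 31 in the first list and 14 of 22 in the second were hosts, against 36.8% of all tested genes of that length, and whether the lists differ from other genes of like length was not tested. In the first list 7 of the 18 hosts were higher and none lower at an unadjusted p under 0.05. In the second 9 of the 16 were higher and none lower. Of all tested genes, 11.9% were higher and 6.45% lower. The hosts' median log2 fold changes were 0.64 and 0.92, and those of the whole lists 0.53 and 0.72. *Snap25*, a SNARE of vesicle fusion, was at 1127, 1316 and 1068 TPM in WT and 3472, 2406 and 1539 TPM in cKO. *Nrxn3* was at 104, 177 and 122 TPM in WT and 269, 256 and 184 TPM in cKO. Both genes had a limma adjusted p of 0.19, and their groups did not overlap. Over all tested genes, 18.7% were higher without overlap. *Lsamp*, an adhesion protein of neurons, averaged 149 ± 11.3 TPM in WT and 246 ± 53.3 in cKO, while *Ncam1* (552 ± 105 and 685 ± 119) and *Cdh2* (192 ± 82.9 and 177 ± 72.8) overlapped between groups (SD, n = 3).

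Of 30 tested voltage-gated channel genes, 9 were hosts, of which 4 were higher and none lower at an unadjusted p under 0.05. Over all tested genes these shares were 11.9% and 6.45%. Of 28 receptor genes for glutamate, GABA and acetylcholine, 5 were hosts and 1 was higher. That was *Grik2*, a kainate receptor subunit, at 11.3, 9.38 and 6.32 TPM in WT and 24.9, 28.2 and 22.3 TPM in cKO. *Kcnma1*, a calcium-activated potassium channel, averaged 87.8 ± 22.9 TPM in WT and 165 ± 56.4 in cKO (SD, n = 3), with overlapping groups. Over the whole lists, 14 of the 42 genes of axon guidance and adhesion were higher and 1 lower, and 17 of the 37 synapse genes, 13 of the 30 channel genes and 12 of the 28 receptor genes were higher and none lower at an unadjusted p under 0.05.

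Markers of other retinal cells were present among the hosts. The rod marker *Sag*, which encodes the arrestin of rods, hosted a region at a listed start (4.73 in WT and 2.49 in cKO) and was at 1628, 1193 and 2124 TPM in WT and 3203, 5943 and 6163 TPM in cKO. Of the rod markers, all 15 were higher at an unadjusted p under 0.05. So were 8 of 10 cone, 3 of 12 bipolar and 6 of 14 amacrine markers, against 11.9% of all tested genes. Of 14 Mueller glia and astrocyte markers none was higher and 3 were lower, against 6.45% lower of all tested genes. Among the amacrine markers was the host *Tfap2c* (38.6 ± 14.9 TPM in WT and 113 ± 11.6 in cKO, SD, n = 3). The cone gene *Thrb* and the amacrine genes *Pax6*, *Gad1* and *Tfap2a* were also hosts, as were *Dkk3* and *Nfia* of Mueller glia, and in *Gad1*, *Dkk3* and *Nfia* the groups overlapped. The summed rod markers did not overlap between the groups, and their part in the RNA of neuronal hosts was not tested. Of the RGC markers, *Ebf3* and *Satb1* were hosts. *Ebf3* averaged 1.36 ± 1.41 TPM in WT and 4.52 ± 1.02 in cKO, and *Satb1* averaged 9.11 ± 2.52 and 5.13 ± 0.388 (SD, n = 3). None of the tested markers on the myeloid (21), B cell (11) and endothelial (10) lists was a host, against 7.66% of all tested genes. Their median gene lengths were 6075, 14939 and 43195 bp. Of tested genes up to 20000 bp, 2.64% were hosts, and of those from 20000 to 50000 bp 7.26% were. These lists hold few genes, so that the lack of hosts says little, and the hosts *H2-DMa* and *Capg* were not on them. The immunoglobulin locus *Igh* also hosted regions.

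Of 44 chromatin regulators, 13 were hosts, among them *Arid1a* and the BAF subunit genes *Arid1b* and *Smarca2*. The remodellers *Chd2*, *Chd7* and *Chd8* and the DNA methyltransferases *Dnmt1* and *Dnmt3a* were also hosts. None of these hosts passed an unadjusted p of 0.05 in either direction. Of all tested genes, 11.9% passed it as higher and 6.45% as lower, so that few would be called among so few hosts. These hosts had a median log2 fold change of 0.23. *Smarca2*, the BRM ATPase, averaged 130 ± 25.7 TPM in WT and 174 ± 39.2 in cKO, and *Chd2* averaged 67.8 ± 7.93 and 83.3 ± 7.40 (SD, n = 3). Of 51 transcription factors of the KLF, SP, ETS, AP-1, RUNX, IRF and STAT families, 8 were hosts, with *Runx3* and *Fosb* lower at an unadjusted p under 0.05. Of 41 genes of cell death and JAK-STAT signalling, 6 were hosts, of which 2 were higher and none lower at an unadjusted p under 0.05, and over the whole list 3 were higher and 11 lower. The median log2 fold change was 0.45 in these hosts and -0.38 over the list. Among these hosts, *Mapk10*, the neuronal JNK kinase, averaged 45.4 ± 25.9 and 96.6 ± 44.7 TPM, *Map3k12*, the kinase DLK of axon injury, 24.5 ± 7.87 and 38.9 ± 4.73, and *Bcl2l1*, the survival factor BCL-XL, 293 ± 75.7 and 336 ± 83.7 (SD, n = 3).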

How the data were processed

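Reads were trimmed, aligned with Bowtie2 2.3.5.1 to GRCm38 (ATAC-seq) or quantified with Salmon 1.0.0 (RNA-seq) by the study, and the submitters' processing notes name MACS2 2.2.5. The deposited ATAC-seq values are log2 of mean normalised reads per region and group, made by the authors with DiffBind; the scaling between libraries is not given in the sources used here. Peak lists were deposited per library. The deposited RNA-seq values are TPM per gene, which keep no depth, so that the depth of each library is unknown here. The authors' own columns of fold changes and p-values (DiffBind, and DESeq2 1.26.0) were not used.

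Region starts, counted from 0, were raised by 1. Gene ends and bodies came from the RefSeq table of GRCm38. RNA was tested with limma 3.58.1 (R 4.3.3) on log2(TPM + 1), with a variance trend and no covariate, for genes of at least 1 TPM in at least 3 of 6 libraries, with Benjamini-Hochberg adjustment over all genes. Fold changes are on this scale, which understates those of low genes. The test was tried on simulated data first. Deviations of WT and cKO libraries with the same number correlated at 0.334, 0.101 and 0.425, and those with different numbers between -0.386 and 0.193. The numbers were taken to pair the RNA libraries, although WT replicate 1 and cKO replicate 2 (0.193) exceeded the second pair. The fit without the block was kept as planned. No genome was used, so motifs were searched in RefSeq start windows and not in region centres as planned.

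The members and gene lists were chosen with earlier results of these data known. Named genes were the hosts of the 12 regions with the highest WT value, the 10 hosts with most regions, the 5 lower and 5 higher hosts with the lowest p, up to 3 hosts per list by mean TPM, *Arid1a*, and the regions next to the distance limit. *Igh*, *Ptprn2*, and the regions with the largest and smallest differences were named after their values were seen, as were hosts listed without values. Alternatives covered the overlap, the distance, the genes used, a lowest WT value, the pseudocount, the filter, the scaling, the trend, the replicate block and each library left out. Leaving out each peak list and chromosome X was added after seeing the data. Some genes and 1 gene list are not reported here.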

Additional observations from a re-analysis of the deposited data

How the results depend on the processing

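Under an overlap of at least 50% of either the region or the WT peak the number of regions stayed at 1776. A peak that lies within its region meets this rule by itself, so that this alternative could hardly change the number. The number was 1313 at over 3000 bp from gene ends, where the median difference was -1.88. With protein-coding genes alone it was 1811, and with a WT value of at least 3 it was 1685. Without 1 cKO peak list in the rule the number was 1876 or 1867 and the median difference -1.97 or -1.96, while leaving out a WT list could not change the rule's members, which stayed at 1776 with -2. No host gene passed an adjusted p of 0.05 in any of the limma fits run. Over all genes, 4 passed as higher without a variance trend, and leaving out 1 library gave 0 to 1 higher and 0 to 1 lower. With the median of ratios scaling, 94 host genes were lower at an unadjusted p under 0.05 and the host median was 0.063. Leaving out 1 library gave 118 to 246 higher (all genes 5.76% to 13.4%), 32 to 70 lower (all genes 4.12% to 7.70%) and a host median of 0.09 to 0.346. Of 57 named genes tested, 9 turned direction in 26 of 682 values, none of them past an adjusted p of 0.05.

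With the replicate number as a block, which pairs the RNA libraries, 258 host genes were higher (19.2%, against 13.4% of all genes) and 75 lower (5.58%, against 8.52%) at an unadjusted p under 0.05, and 1 gene of all passed as lower after adjustment; it changed no other call. For the regions, no paired analysis was possible because ATAC-seq values stand per group and not per library.

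The scaling turned *Arrdc3* to -0.12, *Cetn3* to -0.15, *Bcor* to -0.0916 and *Chd7* to -0.15 on the log2 scale. With 1 library left out, the log2 fold change lay between -0.30 and 0.28 for *Arrdc3*, -0.0093 and 0.50 for *Slc39a10*, -0.26 and 0.10 for *Hdac4*, -0.17 and 0.28 for *Cetn3*, -0.0909 and 0.20 for *Bcor*, -0.48 and 0.19 for *Dkk3*, -0.47 and 0.21 for *Cdh2*, -0.26 and 0.17 for *Chd7*, and -0.18 and 0.52 for *Fancc*. The cause of these changes was not tested. The lack of ATAC-seq values per library leaves no replicate error for the regions, and 3 RNA-seq libraries a group limit what the tests can call.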
